A study of Mus musculus with 16 samples.

Results

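Haem synthesis enzymes and globins were measured in right kidneys of 5 male littermates, wild-type mice named W1 to W5. The 8 genes are Alad, Alas2, Hbb-b1, Hbb-b2, Hbb-y, Hba-a1, Hba-a2 and Hba-x, of 10716 genes that the platform's annotation names. They were selected on their differences among these same kidneys and on their role in making haemoglobin. Their values are therefore given as a description, and nothing is read from tests that include them. They were read by 6 probes of 20205. Alad, Alas2, Hbb-y and Hba-x had a probe each, 1 probe is annotated to both Hbb-b1 and Hbb-b2, and 1 to Hba-a1, Hba-a2 and the histone gene H3f3a. All 6 probes had a value on every array and passed the filter on missing values.

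The study measured how far transcript levels vary between normal mice of 1 litter. RNA of W1, W2, W3 and W4 was each hybridised against RNA of W5 on two-colour arrays, with 4 arrays per mouse and 16 in all. The mice carried no engineered allele or treatment by their labels, had a mixed background of C57BL/6 and 129Sv, were 88 ± 2 days old and died in the morning between 8 and 10. The 5 kidneys came from 1 litter, so the differences are those within this litter. The labels give the whole right kidney and name no perfusion or blood removal step.

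Haem is built from glycine and succinyl-CoA, and its first step is run by ALAS1 in most cells and by ALAS2 in developing red cells. ALAD, the next enzyme, joins pairs of aminolevulinic acid molecules into porphobilinogen, and later enzymes close the ring and ferrochelatase adds iron. Adult haemoglobin pairs alpha chains from Hba-a1 and Hba-a2 with beta chains from Hbb-b1 and Hbb-b2, while Hbb-y and Hba-x encode embryonic chains. Young red cells and reticulocytes carry globin messenger RNA, and the kidney holds blood, so a kidney extract can contain it.

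The bases upstream of the start sites are shown because the adult globin probes had wide ranges across kidneys, Alad had a wide range with another pattern, and Alas2 and the embryonic globins had narrow ones. RefSeq promoter entries on GRCm38.p6 matched 6 of the 8 genes, Alad with a pair of start sites. Hbb-b1 and Hbb-b2 had no entry, so the adult beta-globin genes are not part of what follows on motifs. Each run is 250 bases ending just before the start site, 5′ to 3′ on the gene's strand. Capitals mark the letters of 4 motifs on either strand. The GATA motif was NGATAN with A or T first and A or G last. The motif of KLF factors was CACCC. The box bound by NF-Y was CCAAT. The core promoter box was TATAA. The Alad run is chr4:62520064-62520313 on the minus strand, Alas2 chrX:150547167-150547416 on the plus strand, and Hbb-y chr7:103853208-103853457 on the minus strand. Hba-a1 is chr11:32283422-32283671 and Hba-x chr11:32276350-32276599, both on the plus strand.
Alad: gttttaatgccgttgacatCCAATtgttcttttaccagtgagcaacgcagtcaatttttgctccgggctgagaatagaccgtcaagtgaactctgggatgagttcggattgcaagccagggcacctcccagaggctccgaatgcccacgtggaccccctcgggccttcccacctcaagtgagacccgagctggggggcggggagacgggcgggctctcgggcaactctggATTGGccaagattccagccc
Alas2: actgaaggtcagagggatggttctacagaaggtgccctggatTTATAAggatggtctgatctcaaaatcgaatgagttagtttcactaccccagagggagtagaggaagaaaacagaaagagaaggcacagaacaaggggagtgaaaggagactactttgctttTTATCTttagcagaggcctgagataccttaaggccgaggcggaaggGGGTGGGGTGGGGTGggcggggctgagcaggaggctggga
Hbb-y: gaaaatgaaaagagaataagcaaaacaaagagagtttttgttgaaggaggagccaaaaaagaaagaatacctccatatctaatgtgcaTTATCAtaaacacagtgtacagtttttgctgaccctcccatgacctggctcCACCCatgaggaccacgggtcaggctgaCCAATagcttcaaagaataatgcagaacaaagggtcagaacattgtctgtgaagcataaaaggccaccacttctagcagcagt
Hba-a1: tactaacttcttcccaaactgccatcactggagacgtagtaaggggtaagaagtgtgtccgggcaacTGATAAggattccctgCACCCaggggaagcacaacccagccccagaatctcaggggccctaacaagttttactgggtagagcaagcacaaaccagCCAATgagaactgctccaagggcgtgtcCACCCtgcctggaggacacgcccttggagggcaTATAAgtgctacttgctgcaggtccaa
Hba-x: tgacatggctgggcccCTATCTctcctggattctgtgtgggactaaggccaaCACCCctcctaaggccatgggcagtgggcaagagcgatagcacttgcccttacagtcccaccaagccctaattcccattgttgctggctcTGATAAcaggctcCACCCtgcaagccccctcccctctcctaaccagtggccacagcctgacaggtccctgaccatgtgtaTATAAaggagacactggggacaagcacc

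The Alas2, Hbb-y, Hba-a1 and Hba-x runs each held a GATA motif and CACCC, and the Alad run held neither. Of all 32851 promoters of the same length, 26.5% held a GATA motif, 52% CACCC, 33.8% CCAAT and 22.8% TATAA. Alad had 2 matches to CCAAT and none to the other motifs, while the run of its other start, not printed, had 1 CACCC and 1 CCAAT. Alas2 had 3 matches to CACCC in a row on the opposite strand, and a pair of TATAA matches on opposite strands that overlap each other. Hba-x had 2 GATA matches, 1 of them in the form TGATAA that Hba-a1 also has. The Hba-a2 run, chr11:32296242-32296491 on the plus strand, was identical to that of Hba-a1 at 247 of 247 bases once shifted by 3 bases. A match is a description of the letters and not a binding site.

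The values are log2 ratios between a mouse and W5, with W5 at 0 and the sign turned on the arrays where W5 was in channel 1. Which channel is the numerator is not given in the sources used here, so a sign shows only the same or the opposite side of W5 and never which kidney was higher. Fitted values carry the standard error (SE) of a limma fit over n = 4 arrays per mouse. The range of a probe is its highest minus its lowest value over the 5 kidneys. Since the 4 arrays of a mouse repeat the hybridisation of its kidney RNA, spread and tests describe these extracts, not mice in general. In whole kidney, fewer cells of a type and less RNA per cell cannot be told apart.

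Of all probes, 15715 were tested for any difference among the 5 kidneys with a limma F test. At a Benjamini-Hochberg adjusted p under 0.05, 629 were called, which is 4.00%, and 2805 had an unadjusted p under 0.05. A second F test among W1 to W4, in which W5 cancels, called 109, which is 0.694%, with 1738 at an unadjusted p under 0.05. Of the 6 probes, 3 were called among the 5 kidneys (Alad, the adult alpha-globin and the adult beta-globin probe) and 2 among W1 to W4 (Alad and adult beta-globin). Nothing is read from these counts, since the probes were chosen on the same differences.

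Alad encodes aminolevulinate dehydratase, the enzyme of the second step. Its 4 arrays read 0.77, 0.21, 0.75 and 0.38 in W1 and -0.51, -0.19, -1.21 and -0.03 in W2. They read 0.66, 0.39, 0.52 and 0.28 in W3, and 0.84, 0.62, 0.55 and 0.16 in W4. All 12 values of W1, W3 and W4 lay on the positive side of W5 and all 4 values of W2 on the negative side, so W2 did not overlap with any of the other mice, while W1, W3 and W4 overlapped with each other.

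Fitted Alad ratios from W1 to W4 were 0.53, -0.48, 0.46 and 0.54, each with an SE of 0.17. W5 thus lay between W2 and the other mice, at 1.4-fold from W2 and 1.38-fold to 1.46-fold from the other mice. The range of 1.03 is 2.04-fold and ranks 47 among all probes tested, in percentile 99.7, beside a median range of 0.24 over all of them. W1, W3 and W4 differed from each other by at most 0.08, less than the SE. The repeat arrays of W2 spread widely, with an SD of 0.52 against 0.17 to 0.28 in the other mice.

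The spread of Alad had a pattern by orientation. The mean of the arrays with the mouse in channel 1 was 0.76, -0.86, 0.59 and 0.70 from W1 to W4, and with W5 in channel 1 it was 0.30, -0.11, 0.33 and 0.39. In all 4 mice the ratio was larger in size with the mouse in channel 1, and in all 4 mice the side was the same in both orientations. The residual SD of Alad was 0.35, in percentile 93.2 of all probes tested, beside a median of 0.19. Without array 3 of W2, its largest value, the W2 ratio fell in size to -0.21 and the range to 0.75, and without mouse W2 the range was 0.54.

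**Figure D1:**
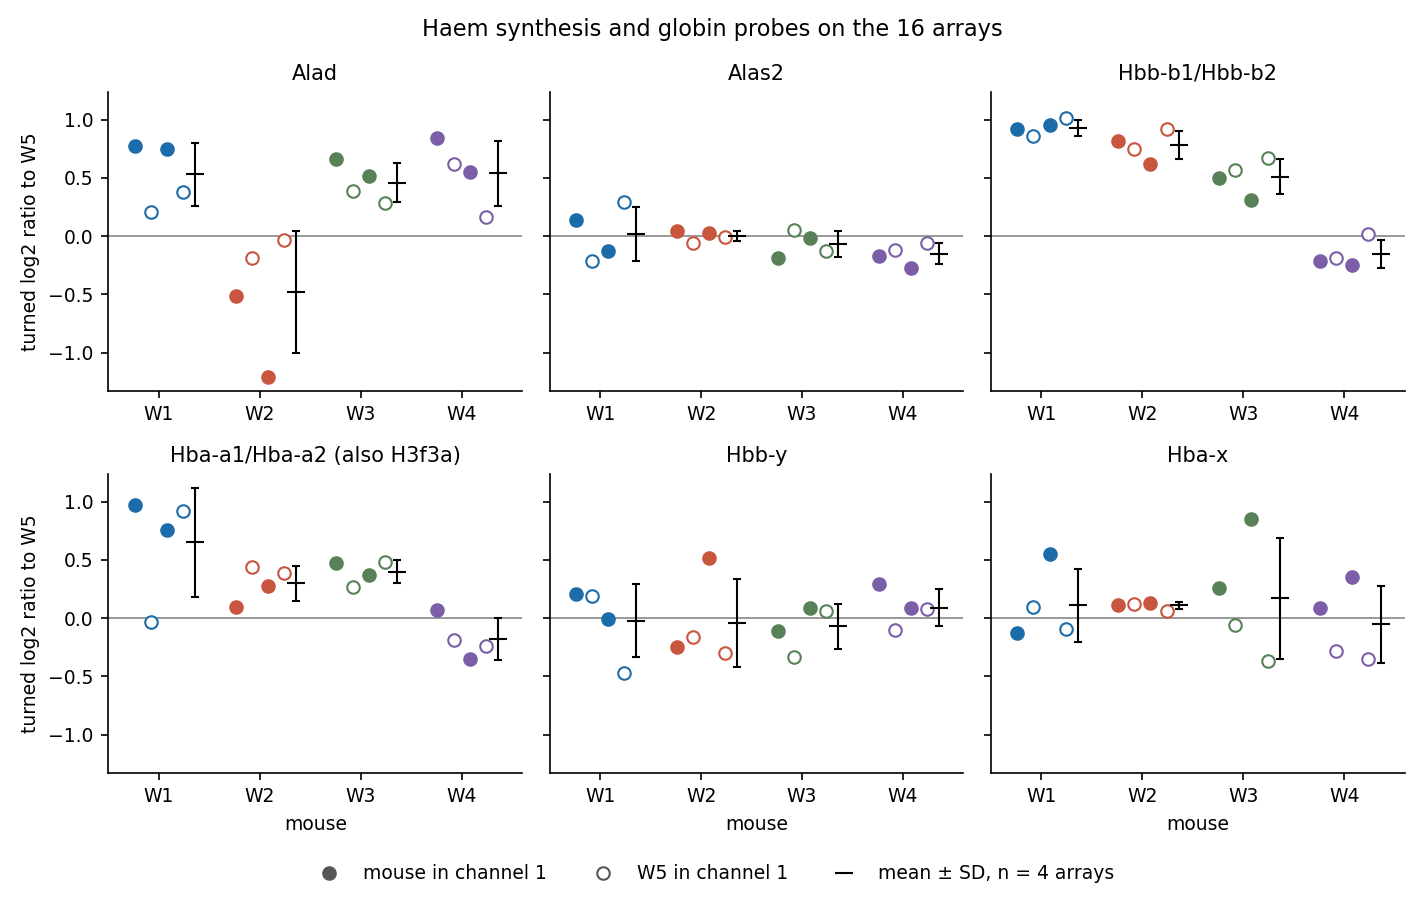
Log2 ratio against W5 (vertical axis, sign turned) on each of the 16 arrays, 1 panel per probe, with the mice W1 to W4 along the horizontal axis. Filled markers are arrays with the mouse in channel 1, open markers those with W5 there, and bars are the mean ± SD of n = 4 arrays. Alad puts the 4 arrays of W2 below 0 and those of W1, W3 and W4 above it. The ratio of the adult beta-globin probe falls from W1 to W4 with little spread.

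The probe annotated to Hbb-b1 and Hbb-b2, the adult beta-globin genes, had the widest range of the 6 probes. Its 4 arrays read 0.92, 0.86, 0.95 and 1.01 in W1, and 0.82, 0.75, 0.62 and 0.92 in W2. They read 0.50, 0.57, 0.31 and 0.67 in W3, and -0.21, -0.19, -0.25 and 0.02 in W4. W1, W2 and W3 lay wholly on the positive side, and W4 lay around W5 with 3 of 4 arrays on the negative side. Of the 6 pairs among W1 to W4, 4 did not overlap, and W1 with W2 and W2 with W3 did.

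Fitted adult beta-globin ratios from W1 to W4 were 0.93, 0.78, 0.51 and -0.15, each with an SE of 0.05. These are 1.91-fold, 1.71-fold, 1.43-fold and 1.11-fold in size against W5. The order was W1, W2, W3, W5, W4, and the range was 1.09 or 2.13-fold, in percentile 99.8 and at rank 36. Its residual SD of 0.10 was in percentile 3.64, so the repeat arrays varied less than at most probes. Both orientations gave the same order, with 0.93, 0.72, 0.41 and -0.23 for the mouse in channel 1 and 0.93, 0.83, 0.62 and -0.08 for W5 in channel 1. Leaving out any 1 array gave a range between 1.06 and 1.14.

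The probe annotated to Hba-a1 and Hba-a2, the adult alpha-globin genes, also lists H3f3a, so its signal cannot be ascribed to alpha-globin alone. Its 4 arrays read 0.97, -0.03, 0.76 and 0.92 in W1, and 0.10, 0.44, 0.28 and 0.39 in W2. They read 0.47, 0.27, 0.37 and 0.48 in W3, and 0.07, -0.19, -0.35 and -0.24 in W4. W2 and W3 lay on the positive side on every array, W1 on 3 of 4 arrays, and W4 on 1 of 4. W4 did not overlap with W2 or W3, and the remaining 4 pairs overlapped.

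Fitted adult alpha-globin ratios from W1 to W4 were 0.65, 0.30, 0.40 and -0.18, each with an SE of 0.14. The order differed from that of beta-globin in placing W3 before W2, but these were 0.09 apart, less than the SE. The range was 0.83 or 1.77-fold, in percentile 99.1 and at rank 139. Without array 2 of W1, which read -0.03, the W1 ratio was 0.89 and the range 1.06. Another H3f3a probe gave 0.07, 0.17, -0.06 and -0.02 in W1 to W4, with a range of 0.23.

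Alas2 encodes the erythroid form of the first enzyme. Its 4 arrays read 0.14, -0.21, -0.13 and 0.29 in W1, and 0.04, -0.06, 0.03 and -0.01 in W2. They read -0.19, 0.05, -0.02 and -0.13 in W3, and -0.17, -0.12, -0.27 and -0.06 in W4. W4 alone lay wholly on 1 side of W5, and only W2 and W4 did not overlap, at 0.15 apart. Fitted ratios were 0.02, 0.00, -0.07 and -0.15 with an SE of 0.07, and the range of 0.18 was below the median of all probes tested, in percentile 26.6.

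Hbb-y and Hba-x encode embryonic beta-like and alpha-like chains. The 4 Hbb-y arrays of W1 read 0.21, 0.19, -0.01 and -0.47, and those of W2 read -0.25, -0.16, 0.52 and -0.30. For W3 they read -0.11, -0.33, 0.09 and 0.06, and for W4 0.29, -0.10, 0.09 and 0.08. Each of these mice had arrays on both sides of W5. The Hba-x arrays of W1 read -0.13, 0.10, 0.55 and -0.09, and those of W2 read 0.11, 0.12, 0.13 and 0.06. For W3 they read 0.26, -0.06, 0.85 and -0.37, and for W4 0.09, -0.28, 0.35 and -0.35. No pair of mice was without overlap for either gene, and Hba-x in W2 alone lay wholly on 1 side of W5. Ranges were 0.16 for Hbb-y and 0.22 for Hba-x, both under the median of 0.24. Hba-x moved with orientation, by 0.19 ± 0.07 (SE) to the positive side with the mouse in channel 1 and by as much to the negative side with W5 there. The size of this term was in percentile 93.9. In W3 Hba-x read 0.55 with the mouse in channel 1 and -0.22 with W5 there.

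Counts of arrays wholly on 1 side of W5 were set beside those of the 11192 probes with a value on every array. Alad was on 1 side in 4 mice, adult beta-globin in 3, adult alpha-globin in 2, Alas2 and Hba-x in 1 each and Hbb-y in 0. Of all probes, 17.4% had this for W1, 20.2% for W2, 17.4% for W3 and 15.6% for W4. Of the 6 probes, 4 had at least 1 pair among W1 to W4 with no overlap, beside 17.9% of all probes, and 2 had at least 3 such pairs, beside 2.15%. These counts are a description only, since the probes were chosen on the same differences.

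**Figure D2:**
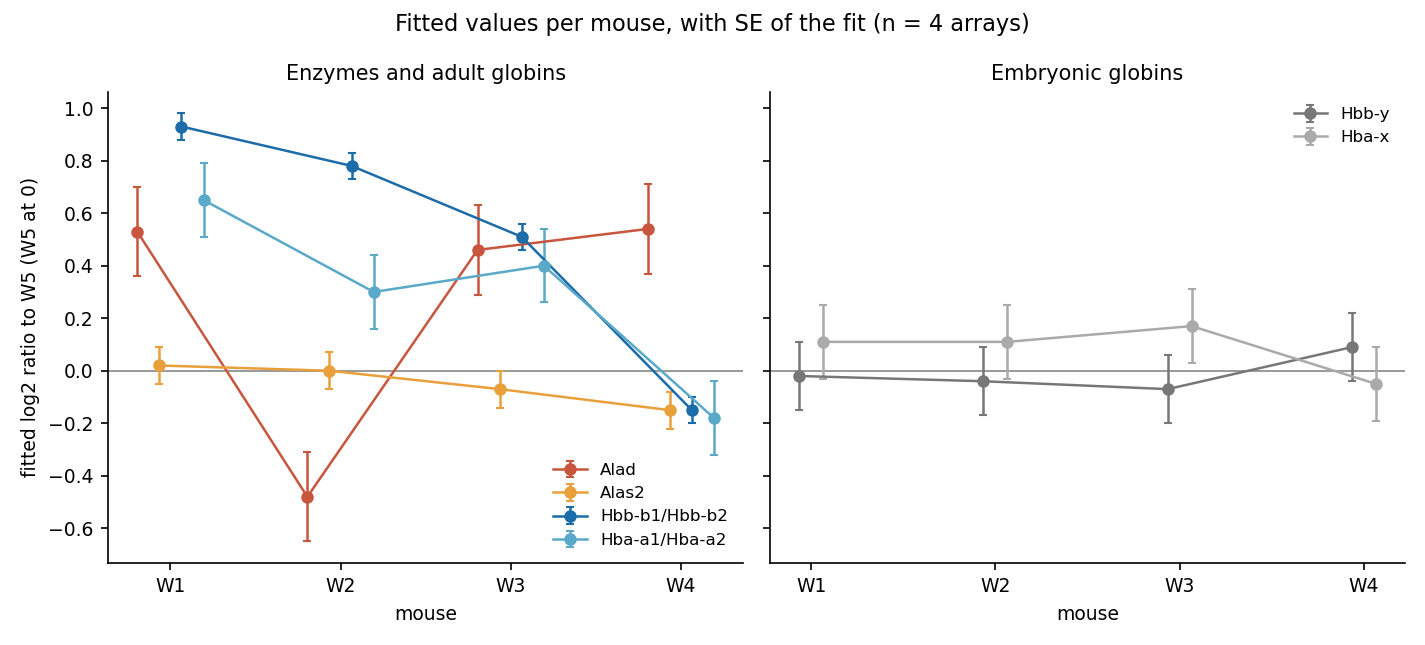
Fitted log2 ratio against W5 with its SE (vertical axis) for W1 to W4 (horizontal axis), 1 line per probe, with W5 at 0. The Alad ratio is negative at W2 alone, and the adult beta-globin and alpha-globin ratios are negative at W4 alone. Alas2, Hbb-y and Hba-x stay within 0.17 of W5.

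Correlations of the probes across the 16 arrays describe which moved together, where all arrays share W5 and each mouse gives 4 of them. Adult alpha-globin and adult beta-globin had Pearson's r of 0.75, and 0.20 after each mouse's mean was taken out. Alas2 had an r of 0.61 with alpha-globin and 0.53 with beta-globin, although its own range was small. With each mouse's mean taken out these were 0.50 and 0.25. Its fitted ratios had the beta-globin order among W1 to W4, but its W3 was negative and that of beta-globin positive. Its W1 and W2 differed by 0.02 beside an SE of 0.07, and W1 changed to -0.07 without its array 4. Alad had an r of -0.29 with beta-globin and 0.12 with alpha-globin, so its pattern was not that of the globins. With each mouse's mean taken out its r values were 0.09 and 0.44. Hba-x and Hbb-y had r of 0.04 and -0.31 with adult beta-globin, and -0.69 and -0.54 after each mouse's mean was taken out. None of these r values was corrected for orientation. Its fitted term was 0.19 for Hba-x, 0.12 for Hbb-y and -0.06 for adult beta-globin. The part of orientation in the r values was not tested.

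The named probes most like adult beta-globin across arrays were Rlf (r = 0.94), Gamt, Atg12 and Ucma (each 0.91) and Nup155 (0.89), chosen by their likeness to its values and so described with no test. The 99th percentile of r over all named probes compared was 0.62. The Gamt probe, for the enzyme that completes creatine synthesis, gave 0.61, 0.46, 0.36 and -0.18 in W1 to W4. Ucma, a cartilage matrix protein gene, gave 0.84, 0.75, 0.53 and -0.18, and Nup155, a nuclear pore subunit gene, gave 0.89, 0.68, 0.51 and -0.19. Rlf gave 0.86, 0.80, 0.68 and -0.13, but its other probes had r of 0.34 and 0.05 to beta-globin, and the other probe of Atg12, an autophagy gene, 0.47.

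In all, 12 probes reached an r of at least 0.85 to adult beta-globin, a threshold chosen after the values were seen. All 12 had the order W1, W2, W3, W4, which their choice by likeness to beta-globin nearly fixes. A symbol is given to 7 of them, the last being Mark3 and Plppr2, and 5 are unnamed here. One of the unnamed probes reached beyond the globin probe, with 0.64, 0.26, -1.31 and -1.62.

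**Figure D3:**
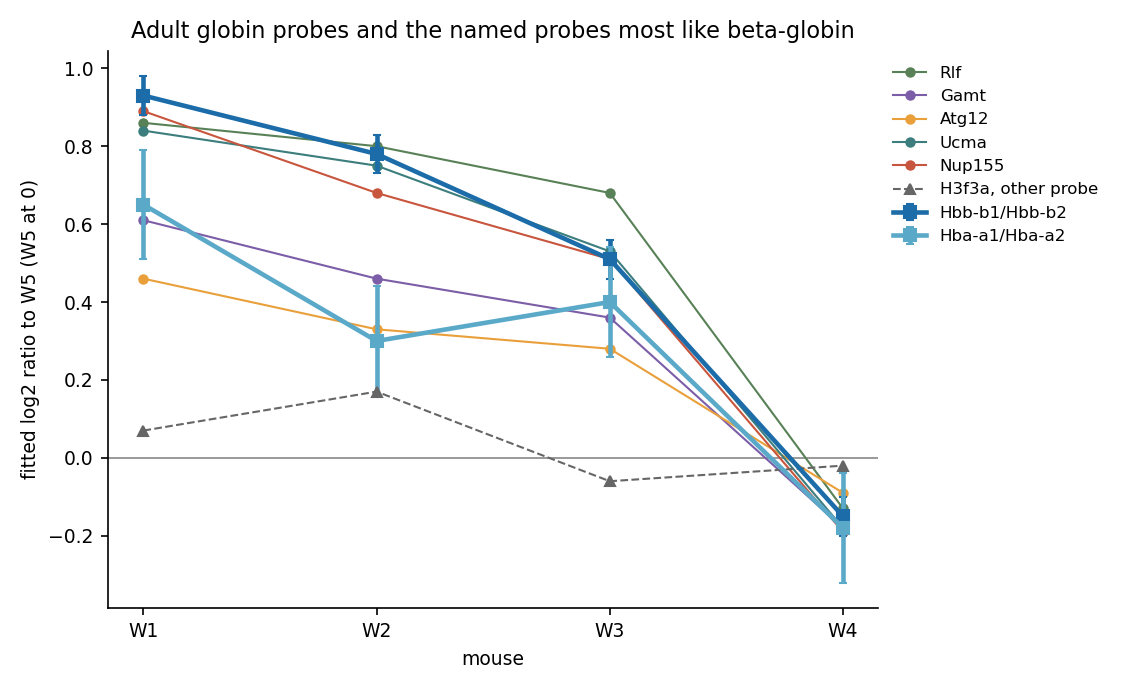
Fitted log2 ratio against W5 (vertical axis, W5 at 0) for W1 to W4 (horizontal axis) of the adult beta-globin and alpha-globin probes (squares, bars are the SE), the 5 named probes most like beta-globin (circles) and the other H3f3a probe (triangles, dashed). The ratios of the 5 named probes fall in the order W1, W2, W3, W4 as that of beta-globin does. The alpha-globin ratio is lowest in W4, and the H3f3a probe stays between -0.06 and 0.17. Lines only join the values of 1 probe.

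The probes most like adult alpha-globin were Cdca8 (r = 0.90), a gene of the chromosomal passenger complex, and Rhob (0.84), which encodes a small GTPase. Cdca8 gave 0.66, 0.64, 0.48 and -0.22 in W1 to W4, and Rhob 0.61, 0.58, 0.51 and -0.12. Those most like Alad were B9d2 and Bbx (both 0.90), with W2 at -0.61 and -0.66 and every other mouse between -0.04 and 0.13. Without array 3 of W2 these r values were 0.67 and 0.84. For Alas2 the nearest was Taok2 (0.78), for Hbb-y Acaa2 (0.88) and for Hba-x Ccdc28b (0.89). Taok2, Acaa2 and Ccdc28b were not called (adjusted p = 0.762, 0.108 and 0.576, limma). Likeness was read over arrays with no correction for orientation, and it need not hold for fitted ratios. Ccdc28b gave -0.12, -0.08, -0.11 and -0.10 in W1 to W4, and Hba-x 0.11, 0.11, 0.17 and -0.05.

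Among the other haem synthesis genes, 1 of 8 tested was called, and 2 had an unadjusted p under 0.05, beside 4.00% called of all probes. The one called was Alas1, the form of the first enzyme used outside red cells. Alas1 gave -0.41, -0.26, -0.14 and -0.43 in W1 to W4 with an SE of 0.09, and its adjusted p was 0.00368 in limma's F test among the 5 kidneys. Alas1 lay on the negative side in all 4 mice, whereas Alad lay on the positive side in 3 of them, so the pair did not share a pattern. Its difference among W1 to W4 alone was not called (adjusted p = 0.568, limma).

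Uros, which makes the first ring-closed porphyrin precursor, had a range of 0.52 (adjusted p = 0.203, limma), and Ppox 0.14 (adjusted p = 0.718, limma). The iron importer of mitochondria Slc25a28 had a range of 0.44 (adjusted p = 0.464, limma). Fech, ferrochelatase, had a range of 0.28 (adjusted p = 0.484, limma) by the probe with most values. Its other probe gave 0.40, 0.42, 0.00 and 0.13 and was called (adjusted p = 0.0404, limma), so the probes disagreed. Urod, Cpox and Hmox1 were not analysed here. The median range of the list was 0.30, beside 0.24 over all probes.

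Haem breakdown, transport and scavenging genes gave 0 calls in limma's test among 13 tested, with 2 at an unadjusted p under 0.05 and a median range of 0.21. Haptoglobin, Hp, which binds free haemoglobin, had the widest range at 0.62 (adjusted p = 0.109, limma). The scavenger receptor Lrp1 followed at 0.39 and the haem exporter Flvcr1 at 0.38. Iron handling genes also gave 0 calls in limma's test, among 9 tested, with 2 at an unadjusted p under 0.05 and a median range of 0.18. Hamp, hepcidin, had a range of 0.57 (adjusted p = 0.126, limma), Cp, ceruloplasmin, 0.34 (adjusted p = 0.0776, limma), and Aco1 0.30. Hp was called with the replicate number as a block (adjusted p = 0.0436, limma) and without array 4 of W4 (adjusted p = 0.0326, limma). Hamp and Cp were called without array 2 of W4 (adjusted p = 0.0263 and 0.0473, limma).

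Erythroid genes were listed and read beside the globins. Alas2, described above, is not on the list, and whether the listed genes are particular to red cells was not checked here. A difference in red cell content between the kidneys was not tested. Of 16 tested, 1 was called, beside 4.00% of all probes. It was Aqp1, a water channel that the kidney tubule also expresses, with -0.29, 0.17, -0.22 and -0.30 (SE 0.07; adjusted p = 0.0153, limma). It was not called without mouse W1 (adjusted p = 0.103, limma) or without the dye term (adjusted p = 0.149, limma). The median range was 0.26, beside 0.24 over all probes. Beside adult beta-globin, 0 of 16 had its order W1, W2, W3, W4, as 3.57% of all probes tested had, and 4 of 16 differed between W1 and W4 in the same direction as it, beside 47.2% of all probes tested. Those 4 were Aqp1, Rhd, Car2 and Cat. Rhd gave -0.05, 0.05, -0.08 and -0.38, Car2 0.06, 0.09, 0.12 and -0.06, and Cat 0.01, 0.01, 0.01 and -0.18. In the other direction, Slc4a1, the band 3 anion exchanger, gave -0.02, -0.03, -0.13 and 0.12. Klf1, a globin gene activator, gave -0.06, 0.21, -0.01 and 0.09, and Hemgn -0.15, -0.14, 0.02 and 0.17. Slc4a1, Klf1, Hemgn, Car2 and Cat were named after their values were seen. Ranges were 0.43 for the blood group gene Rhd (adjusted p = 0.679, limma) and 0.38 for Tspo2 (adjusted p = 0.479, limma). The median ratios of the list were -0.06, 0.03, -0.01 and 0.09 in W1 to W4.

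Markers of other blood cells, vessels and tubules were read beside the globins, and their part in the result was not tested. Platelet genes gave 0 calls in limma's test among 5 tested, with 0 at an unadjusted p under 0.05 and ranges of 0.50 for Treml1, 0.44 for Vwf and 0.32 for Itga2b. Leukocyte genes gave 1 call of 11, beside 4.00% of all probes. It was S100a8, with -0.24, -0.46, 0.19 and -0.16 (adjusted p = 0.0242, limma). S100a8 lost its call without array 1 or 3 of W2 and without mouse W1, W2 or W3 (adjusted p up to 0.263, limma). Lyz2 had a range of 0.55 and Ptprc 0.54, and another Lyz2 probe was called (adjusted p = 0.0117, limma). Median leukocyte ratios were -0.07, -0.06, 0.04 and 0.07, which is not the order of the globins.

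Endothelial genes gave 4 calls of 10 tested, beside 4.00% of all probes, and a median range of 0.39. The lists were chosen with earlier results of these data known. The counts here and for kidney epithelium below are therefore a description only. Esm1 gave 0.14, 0.54, 0.04 and 0.74 (adjusted p = 1.45e-05, limma), Emcn 0.03, 0.51, 0.04 and 0.59 (adjusted p = 0.00102, limma) and Egfl7 0.06, 0.45, -0.09 and 0.26 (adjusted p = 0.00254, limma). Ehd3 was the other one called (adjusted p = 0.0276, limma), but lost its call in 10 of 26 alternatives, and its other probe was not called (adjusted p = 0.624, limma). Flt1 was not called by the probe used, but its other probe was, with 0.12, 0.46, -0.12 and 0.45 (adjusted p = 0.00395, limma). Without mouse W2 the calls of Emcn and Egfl7 were lost too (adjusted p = 0.0504 and 0.201, limma). Plvap had a range of 0.75 (adjusted p = 0.109, limma). Their median ratios were 0.01, 0.28, -0.06 and 0.25, so W2 and W4 stood apart from W1 and W3, which is not the order of Alad or of the globins. Kidney epithelium genes gave 2 calls of 7, beside 4.00% of all probes. They were Podxl of podocytes with 0.40, 0.68, 0.04 and 0.47 (adjusted p = 3.86e-05, limma) and the water channel Aqp2 with -0.36, 0.05, -0.13 and -0.54 (adjusted p = 0.00879, limma). Aqp2 lost its call without the dye term, mouse W1 or mouse W4. Umod had a range of 0.43 (adjusted p = 0.0591, limma). Ratios carry no level, so the labelled tissue could not be checked against these markers by level.

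Other haem proteins gave 0 calls in limma's test among 8 tested, with 1 at an unadjusted p under 0.05. Their ranges were 0.33 for Mb, myoglobin, 0.30 for Cyc1 and 0.25 for Cycs, cytochrome components. Oxygen sensing and erythropoietin genes gave 0 calls in limma's test among 9, with 1 at an unadjusted p under 0.05, and Vegfa, Bnip3 and Arnt had ranges of 0.40, 0.39 and 0.37.

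Genes next to these on their chromosomes were read from the gene table's order, up to 10 on each side. For Hbb-b1 and Hbb-b2 that order held only 2 neighbours each, and 0 genes beside Hbb-b1, Hbb-b2 or Hbb-y were tested. In all, 15 neighbours were tested, with 0 called by limma, beside 4.00% of all probes, and 3 at an unadjusted p under 0.05. Pole3, next to Alad, gave -0.05, -0.19, -0.05 and -0.04. Those with an unadjusted p under 0.05 were Bspry beside Alad, with a range of 0.33 (adjusted p = 0.0731, limma), and Mpg and Stk10 beside the alpha-globin cluster, with 0.41 (adjusted p = 0.141, limma) and 0.39 (adjusted p = 0.175, limma). They are named after their values were seen. Bspry passed the threshold without array 2 of W1 (adjusted p = 0.0489, limma), with array weights (0.0469) and with values required on all 4 arrays (0.0454). Mpg passed it with array weights (adjusted p = 0.0301, limma) and with a common median absolute deviation (0.0456).

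**Figure D4:**
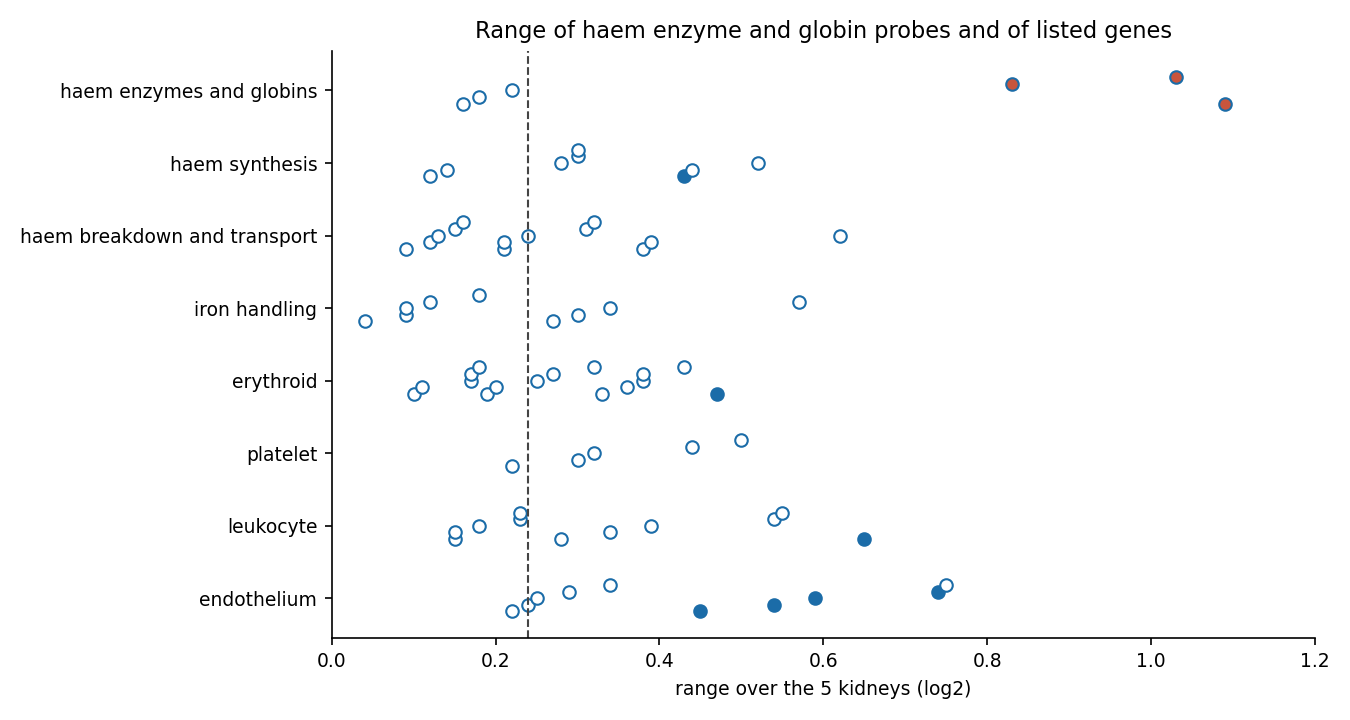
Range over the 5 kidneys in log2 units (horizontal axis) of the 6 probes and of each tested gene of the lists shown (points), by list (vertical axis). Kidney epithelium, other haem protein, and oxygen sensing and erythropoietin genes are not shown. Filled points passed the 5-kidney test at an adjusted p under 0.05, red for the haem enzyme and globin probes (shown as a description) and blue for listed genes, and the dashed line is the median range of all probes tested, 0.24.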

How the data were processed

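Deposited values are log2 channel ratios, which the authors made from background-subtracted GenePix Pro 3.0 intensities read on a GenePix 4000A, per the labels. What is not given in the sources used here is the numerator, the dye per channel and the filter that left cells empty. Arrays had values for 80.2% to 91.1% of 20205 probes. Signs of arrays with W5 in channel 1 were turned, since opposite orientations of a mouse correlated below 0 once centred (-0.117, -0.0741, -0.0792 and -0.0735 in W1 to W4, across probes). Before turning, different mice in the same orientation correlated at 0.062 to 0.465.

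limma 3.58.1 in R 4.3.3 fitted 4 mouse coefficients and a dye term for probes with values on at least 3 of 4 arrays of every mouse, 15715 in all. F tests were computed as nested comparisons with limma's moderated variance, because many probes have empty cells, and adjusted by Benjamini-Hochberg with calls under 0.05. The number of arrays and animals limits the precision. Replicate numbers did not pair arrays. The fit was tested on simulated data. From each list the genes called, the 3 widest ranges and the core haem enzymes were named, and for each probe its nearest by correlation over at least 12 arrays. Some genes were named outside this rule after their values were seen, among them the erythroid genes Slc4a1, Klf1, Hemgn, Car2 and Cat. Genes with several probes used the one with most values. The genes and lists were chosen with earlier results of these data known.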

Additional observations from a re-analysis of the deposited data

Results flagged for a closer look

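Alad lay on opposite sides of W5 in W2 and in the other mice, on every array. The fitted distance from W2 was 1.01 to W1, 0.95 to W3 and 1.03 to W4 in log2 units. These pairwise differences were not tested, and nothing is read from the F tests that include Alad. Hbb-y on array 3 of W2 stood apart from the other arrays of W2: its gap was 0.832 of the group's whole range, beside a critical value of 0.829. This was the only one of 24 groups of 4 arrays so marked, where chance marks about 1 in 20.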

How the results depend on the processing

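The count among the 5 kidneys, 629, became 403 without the dye term, 378 and 334 without mice W1 and W2, and 383 with 1 probe per named gene, which also leaves out unnamed probes, and 458 to 670 without single arrays. The count among W1 to W4, 109, became 62 without the dye term, 51, 53, 49 and 69 without mice W1, W2, W3 and W4, and 65 (without array 2 of W3; 72 without array 3 of W1) to 126 without single arrays. The haem and iron lists, with 1 call, gave 3 with array weights, 2 without mouse W4 and 1 to 3 without single arrays (3 without array 2 and 2 without array 4 of W4). The erythroid call became 0 without the dye term and without mouse W1, and was 1 without any single array. The 0 chromosome neighbours called by limma, 3 at an unadjusted p under 0.05, became 2 with array weights, 1 with values required on all 4 arrays, 1 with a common median absolute deviation and 0 to 1 without single arrays (1 without array 2 of W1). The cause was not tested.

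The replicate block changed the counts to 591 and 96, and the haem and iron count to 2. Arrays of the same number correlated at -0.0529 on average after the fit, others at 0.0176, and 0 of 16 correlated best with their own number. Of the ranges of the 6 probes under alternatives, 152 stayed within 1 SD of the arrays and 4 moved. Ratios near 0 changed side of W5 without single arrays, such as Alas2 in W1 from 0.02 to -0.07 and Hba-x in W3 from 0.17 to -0.01, and Hbb-y in W1 from -0.02 to 0.10 and in W2 from -0.04 to 0.07. Alas1 kept its call in all 26 alternatives.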
